A study of Mus musculus with 24 samples.

Results

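The genes followed here over thymocyte selection are 10 of those that govern exit from G1 of the cell cycle: the D-type cyclins Ccnd1, Ccnd2 and Ccnd3, the kinases Cdk2, Cdk4 and Cdk6, and the inhibitors Cdkn1a (p21), Cdkn1b (p27), Cdkn2c (p18) and Cdkn2d (p19). They were taken as the probesets that the annotation of the array gives to 1 of these symbols alone, which made 22 of 22626 probesets, or 10 of the 12393 genes named on the array. The arrays, Affymetrix MOE430A, gave for each probeset a MAS 5.0 signal, a relative mRNA level on a linear scale. A total of 24 arrays held 3 independent pools each of 8 kinds of sorted thymocytes from healthy females of 6 to 8 weeks, of the strains NOD (NOD.H2k) and B10 (C57BL10.H2k), which share the H2k haplotype.

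Every mouse carried the 3A9 T cell receptor transgene (TCR), specific for hen egg lysozyme. S- cells came from mice that carried insHEL as well, a transgene that expresses lysozyme under the insulin promoter and so in the medullary epithelium of the thymus, and they are the cells undergoing negative selection. S+ cells, undergoing positive selection, came from mice with the TCR alone. Both were sorted with the antibody 1G12, which binds this receptor, as CD4+CD8lowCD69+1G12+ cells. PreS cells are the preselection CD4+CD8+CD69-1G12- cells, sorted from TCR insHEL mice and from TCR mice, and the 3 pools of each were merged into a group of 6. S- and S+ cells were sorted by the same gate and are set apart by insHEL alone. A pool of sorted cells cannot tell fewer cells with a transcript from less of it per cell.

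D-type cyclins are made in response to signals from outside the cell, bind Cdk4 or Cdk6 and phosphorylate the retinoblastoma protein, so that E2F factors are set free. E2F then turns on the genes of cyclin E, cyclin A and DNA replication, and cyclin E with Cdk2 carries the cell into S phase. The inhibitors of the INK4 family (Cdkn2c, Cdkn2d) bind Cdk4 and Cdk6 alone, and those of the Cip/Kip family (Cdkn1a, Cdkn1b) bind complexes of Cdk2 as well. In the thymus cyclin D3 is known as the D-type cyclin of the proliferating stages that follow rearrangement of the receptor beta chain, before most CD4+CD8+ cells come to rest.

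The start regions of Cdkn1a, Cdk4 and Cdk2 are shown, a choice made by hand. Each of these members was lower below in S- or S+ cells of at least 1 strain. Each window holds a match to a motif of a factor known in control of the cell cycle. Cdkn2c, lower as well, also has a window with such a match, which is not shown. The regions shown are RefSeq windows of the build GRCm38.p6, 250 bases before to 50 after an annotated start. They read 5' to 3' on the strand of the gene. Windows were given for 8 of the 10 members. In Cdkn1a, on the plus strand at chr17:29090729-29091028, capitals mark a pair of ACATGT set 4 bases apart, of the kind bound by p53, letters that were chosen after this window was read and that 0.0122% of the 32851 mouse windows held. In Cdk4, on the plus strand at chr10:127063285-127063584, capitals mark 4 copies of the E-box CACGTG bound by Myc and related factors. In Cdk2, on the minus strand at chr10:128705002-128705301, capitals mark an E2F type site in its reverse form.
Cdkn1a: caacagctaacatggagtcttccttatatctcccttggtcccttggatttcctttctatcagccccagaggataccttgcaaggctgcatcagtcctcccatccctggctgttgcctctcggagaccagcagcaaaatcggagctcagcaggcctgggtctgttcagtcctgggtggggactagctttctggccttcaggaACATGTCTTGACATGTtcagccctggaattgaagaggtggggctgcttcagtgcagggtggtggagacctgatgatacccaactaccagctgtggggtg
Cdk4: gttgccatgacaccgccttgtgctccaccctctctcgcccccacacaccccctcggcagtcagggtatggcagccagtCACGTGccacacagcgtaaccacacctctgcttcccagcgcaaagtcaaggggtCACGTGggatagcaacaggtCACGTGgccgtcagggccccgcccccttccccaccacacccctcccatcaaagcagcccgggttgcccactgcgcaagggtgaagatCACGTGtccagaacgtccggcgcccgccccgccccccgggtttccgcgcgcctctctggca
Cdk2: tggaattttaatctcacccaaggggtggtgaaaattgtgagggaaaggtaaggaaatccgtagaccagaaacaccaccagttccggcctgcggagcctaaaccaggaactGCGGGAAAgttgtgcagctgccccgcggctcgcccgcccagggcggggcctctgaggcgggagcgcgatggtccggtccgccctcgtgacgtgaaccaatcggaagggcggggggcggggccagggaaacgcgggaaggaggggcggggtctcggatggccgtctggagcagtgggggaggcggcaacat

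An E-box stood in 7.15% of all windows. At least 4 of them, a limit equal to the count of the Cdk4 window itself, stood in 0.0244%, which is 8 windows with that of Cdk4 included. For E2F the letters TTTCCCGC, TTTGGCGC, TTTCGCGC and TTTGCCGC were searched, and 2.26% of windows held 1 of them. Of the 11 windows of members only that of Cdk2 held an E2F match and only the Cdkn1a window printed held the p53 type pair, while an E-box was also found in windows of Cdk6 and Cdkn2c. The GC box GGGCGG, searched too, was in 35.7% of all windows. Both strands were searched, with CACGTG, which reads the same on both, counted once, and no match of one motif overlapped one of another in these 11 windows. The arrays did not measure binding at any of these letters.

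Of the 6 listed thymocyte markers on the array, Ccr7, Rag1 and Cd8a set all S- and S+ arrays apart from PreS arrays. Signals of Cd8b1 overlapped those of PreS arrays in NOD, and those of Cd3e did so in NOD and in B10 S- cells. Ccr7, a chemokine receptor of selected thymocytes, had signals of 376.6 to 966.4 over all S- and S+ arrays and of 6.6 to 51.7 in PreS arrays, and Rag1, needed for receptor rearrangement, had 66.0 to 456.0 in S- and S+ arrays and 758.9 to 1631.7 in PreS arrays. Of the genes of the gate, Cd8a had 179.6 to 680.6 in S- and S+ arrays and 1808.8 to 3385.7 in PreS arrays. Cd4, though S- and S+ cells share a CD4+ gate, averaged 835 in NOD S-, 1070 in NOD S+ and 475 in NOD PreS cells, and 316 in B10 S-, 995 in B10 S+ and 277 in B10 PreS cells. It was lower in S- than in S+ cells of B10 (-1.71 ± 0.33 on the log2 scale, limma adjusted p = 0.0193) and higher in NOD than in B10 S- cells (1.47 ± 0.31, adjusted p = 0.00851), and its part in the values below was not tested. Arrays differed in RNA quality, with a 3' to 5' ratio of the Gapdh control probesets of 2.19 to 57.2 (median 4.75). The ratio was 57.2 and 40.9 on NOD S+ arrays 1 and 2, 29.4 on B10 S+ array 1 and 28.9 on array 1 of NOD PreS cells from TCR insHEL mice. Summed signals of the 6 macrophage and dendritic cell markers on the array were 636 to 1260 in NOD S-, 1330 to 2400 in NOD S+ and 314 to 995 in NOD PreS arrays, and 505 to 1480 in B10 S-, 408 to 707 in B10 S+ and 365 to 1320 in B10 PreS arrays, and those of the 4 B cell markers were 153 to 295 in NOD PreS arrays and 340 to 704 in B10 PreS arrays. Epithelial markers summed to 42.8 to 167 and erythroid markers to 12.3 to 299 over all arrays.

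Of the 22 probesets 17 passed the filter on low signals, which asked for 32 or more on each of the 3 arrays of 1 or more of the 8 kinds of cells, and they stand for 9 of the 10 genes. The others were Cdk6 and the dimmer probesets of Ccnd1, Ccnd2, Cdkn1a and Cdkn1b. Of the 17, 1416123_at of Ccnd2 was kept through B10 S- and S+ cells alone and 1417420_at of Ccnd1 through NOD cells alone, the groups in which they are high, so that they had to differ and their tests are not read as results. In NOD S- cells 6 of the 17 were above PreS cells and 1 was below (limma, adjusted p under 0.05), where 11.2% of all 12838 kept probesets changed, 5.51% up and 5.68% down. In NOD S+ cells 6 were above and 4 below, where 14.8% of all changed, 6.13% up and 8.66% down. In B10 S- cells 6 were above and 4 below (11.2% of all, 4.42% up and 6.80% down), and in B10 S+ cells 6 and 6 (16.8% of all, 7.37% up and 9.44% down). The 6 that were higher were in every case the 6 kept probesets of Ccnd2, or 5 without 1416123_at, so a count of genes is the fairer one. Taking each gene by its brightest probeset, 1 of 9 was higher and 1 lower in NOD S-, 1 and 3 in NOD S+, 1 and 4 in B10 S-, and 1 and 5 in B10 S+. The median log2 fold change of the 17 was -0.24, -0.06, -0.13 and -0.30 in these 4 comparisons, and that of all kept probesets 0.02, 0.02, 0.01 and 0.04. The signals of the 2 groups did not overlap for 8, 8, 9 and 11 of the 17, and for 22.0%, 17.5%, 17.9% and 19.2% of all. Each of these counts, too, holds the 6 kept probesets of the 1 gene Ccnd2, with 1416123_at among them. The fold changes of all 17 are drawn in the plot of changes within each strain.

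**Figure D1:**
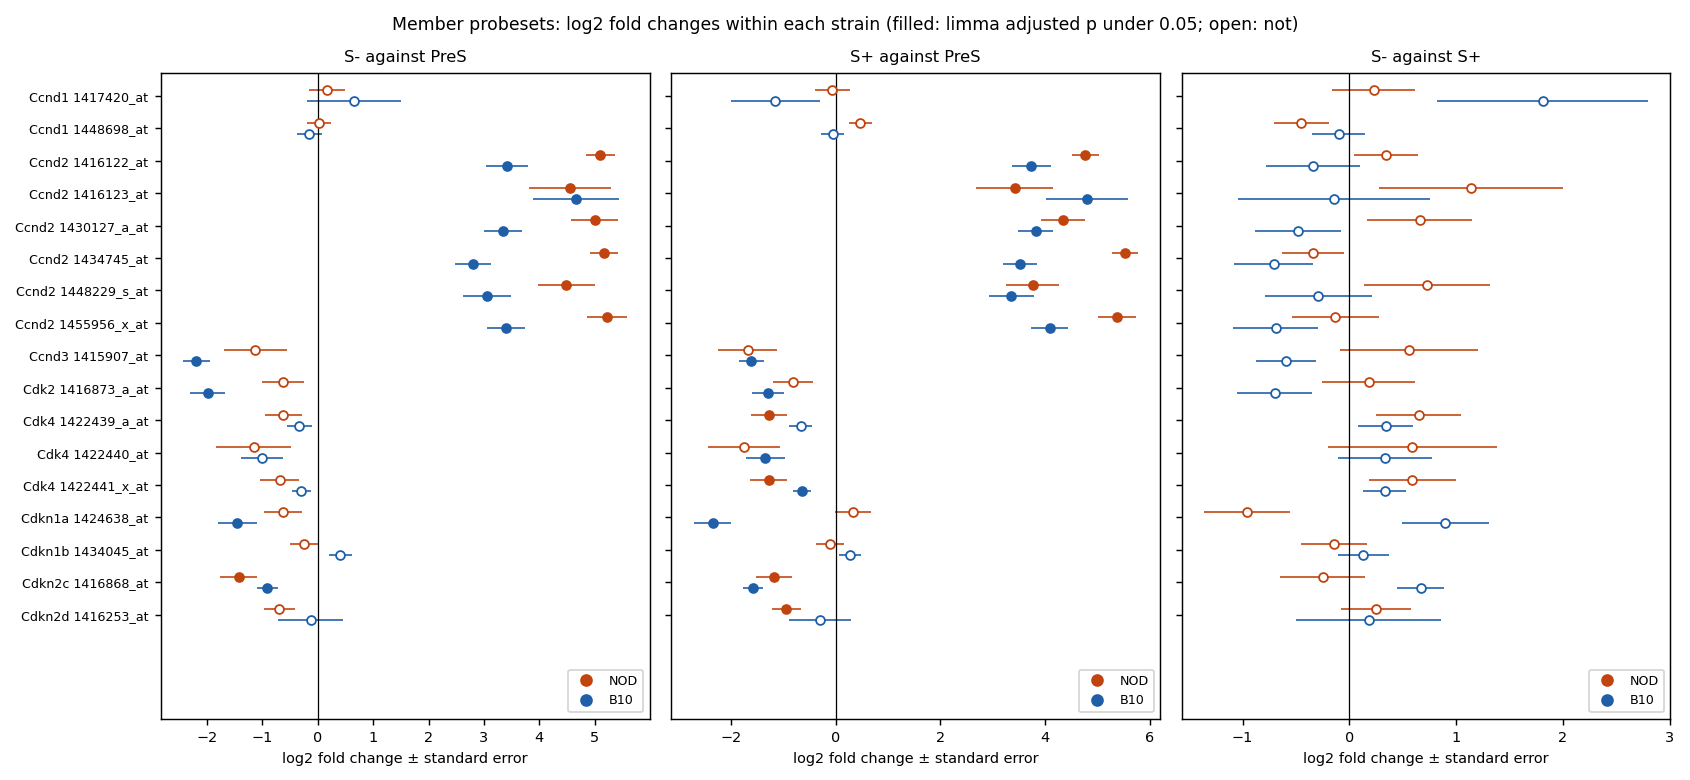
Log2 fold changes of the 17 kept member probesets (1 to a line) in NOD (orange, upper of each pair) and B10 (blue), for S- against PreS, S+ against PreS and S- against S+ cells. Bars are standard errors from limma, filled points passed an adjusted p of 0.05 over all 12838 probesets and open points did not. The 6 Ccnd2 lines lie right of 0 in both comparisons with PreS cells, and no point is filled in S- against S+.

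Cyclin D2, known as the D-type cyclin that antigen receptor and cytokine signals induce in lymphocytes, was the only 1 of the 3 that rose with selection. Its gene lies at chr6:127125162-127152188 (GRCm38.p6, as all positions here). On its brightest probeset (1416122_at) Ccnd2 had signals of 1754.4, 1761.7 and 2158.2 in NOD S- cells, 951.9, 1825.2 and 1553.5 in NOD S+ cells, and 42.3 to 77.0 (median 44.95) over the 6 NOD PreS arrays. In B10 it had 1465.4, 2365.0 and 1700.2 in S- cells, 1710.3, 3271.8 and 2206.4 in S+ cells, and 61.9 to 261.5 (median 192.25) in PreS cells. Every S- and S+ array thus lay above every PreS array of its strain, with no overlap. The log2 fold change against PreS was 5.10 ± 0.26 (SE; limma adjusted p = 1.3e-07) in NOD S-, 4.77 ± 0.26 (adjusted p = 3.1e-07) in NOD S+, 3.41 ± 0.38 (adjusted p = 7.2e-05) in B10 S- and 3.74 ± 0.38 (adjusted p = 1.3e-05) in B10 S+ cells.

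Of the other 5 kept Ccnd2 probesets, 1416123_at had signals of 29.5 to 90.5 in NOD S-, 11 to 35.4 in NOD S+, 35.6 to 119.4 in B10 S-, 49.1 to 119.5 in B10 S+ and 0.5 to 8.8 in PreS arrays. The remaining 4 gave log2 fold changes of 4.49 to 5.23 in NOD S-, 3.76 to 5.52 in NOD S+, 2.80 to 3.40 in B10 S- and 3.35 to 4.09 in B10 S+, each with a limma adjusted p under 0.05. Over the 24 arrays the 6 probesets correlated at r of 0.82 to 0.987, which describes probes of the same transcripts on the same arrays. The seventh, 1416124_at, was not kept. On some of them PreS signals were near or under 32, where the level is not exact. Hybridization days could be matched in part: on days that held both groups the change of 1416122_at was 5.50 in NOD S+ (1 day), 3.27 to 4.30 in B10 S+ (2 days) and 3.09 in B10 S- (1 day), while NOD S- and NOD PreS arrays shared no day. With day as a block the value in NOD S- was 6.01 with a limma adjusted p of 0.144 (range over 25 settings 1.6e-09 to 0.144), and no probeset on the array passed in that fit. In the other 24 settings, and in all 25 of each other comparison of 1416122_at with PreS, it passed. With day as a block the other 4 lost the call in NOD S- as well (adjusted p of 0.144 to 0.246), as did 1430127_a_at (5.33, 0.147, range 2.0e-07 to 0.147), 1448229_s_at (3.76, 0.157, range 2.1e-05 to 0.157) and 1455956_x_at (5.97, 0.0592, range 4.0e-09 to 0.0592) in NOD S+, and 1448229_s_at in B10 S- (1.97, 0.0836, range 2.1e-04 to 0.0836). Without the 3 arrays of highest Gapdh ratio 1448229_s_at was also lost in NOD S+ (2.97, 0.0652).

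**Figure D2:**
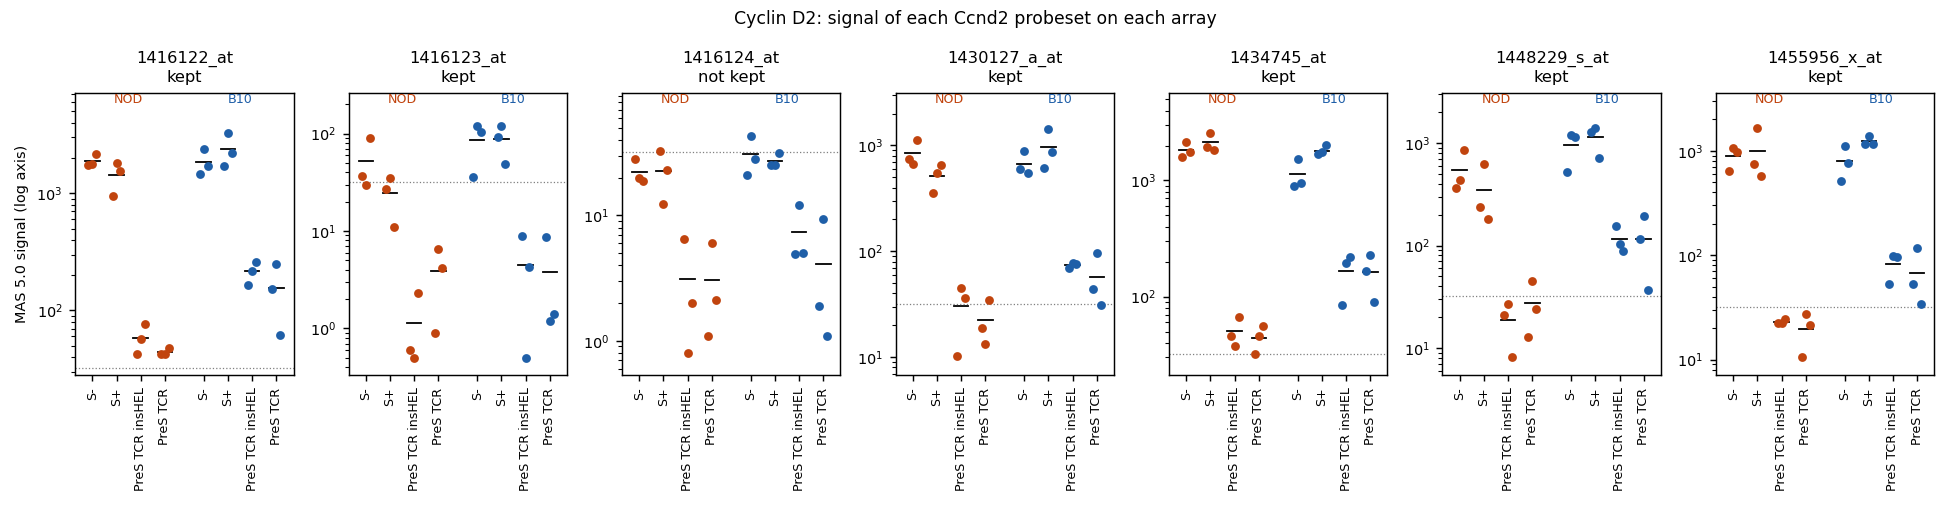
MAS 5.0 signal (log axis) of the 7 Ccnd2 probesets on each of the 24 arrays, NOD in orange and B10 in blue, with S-, S+ and the 2 kinds of PreS cells from left to right in each strain. Points are arrays, lines are arithmetic means of 3 arrays and the dotted line is the filter at 32. In the 6 kept probesets PreS arrays lie below all S- and S+ arrays of the strain, and 5 of them are lower in NOD than in B10 PreS cells.

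The strains differed in Ccnd2 before selection. In PreS cells 1434745_at, the probeset of next highest signal, had 31.8 to 67.3 (median 45.85) in NOD and 85.6 to 230.3 (median 179.9) in B10, with no overlap between the 6 arrays of each. The log2 fold change of NOD over B10 was -1.67 ± 0.24 (SE; limma adjusted p = 7.6e-05) on this probeset and -1.68 ± 0.27 (adjusted p = 3.8e-04) on 1416122_at, where array 3 of B10 PreS cells from TCR mice (61.9) fell among the NOD values. In all, 5 of the 6 Ccnd2 probesets were lower in NOD PreS cells, where 4.13% of all kept probesets differed between the strains, 1.65% higher and 2.48% lower in NOD. The only other member probeset past the threshold was 1417420_at of Ccnd1, not read as a result. Signals did not overlap for 2 of the 17, both of them Ccnd2 probesets, and for 3.12% of all. On the 3 days that held PreS arrays of both strains the difference on 1416122_at was -2.39 to -1.45. Among the B cell markers, whose sums are given above, 1 of 4, Blk, was also lower in NOD PreS cells (mean signal 90.3 in NOD and 222 in B10, NOD over B10 -1.25 ± 0.26 on the log2 scale, limma adjusted p = 0.00512). B cells are known to express cyclin D2, and their part in this difference was not tested.

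In selected cells no Ccnd2 probeset differed between the strains past the threshold. The log2 fold change of NOD over B10 on 1416122_at was 0.01 ± 0.39 in S- cells (limma adjusted p = 0.993) and -0.66 ± 0.39 in S+ cells (adjusted p = 0.364), and on 1434745_at 0.70 ± 0.34 and 0.33 ± 0.34 (adjusted p = 0.343 and 0.627). The nearest to a call was 1448229_s_at, with 239.3, 620.8 and 180.6 in NOD S+ and 1278.3, 1408.6 and 722.3 in B10 S+ cells, which did not overlap (-1.88 ± 0.58, limma adjusted p = 0.0772). It passed in 4 of 35 settings (0.0166 to 0.314), with the floor of 16 (0.0429), the replicate block (0.0389), the Gapdh ratio as a covariate (0.0166) and without NOD S+ array 2 (-2.44, 0.0332). Whether the rise itself differed was tested as a difference of fold changes. On 1434745_at it was larger in NOD by 2.37 ± 0.41 for S- against PreS (limma adjusted p = 0.0172) and by 2.00 ± 0.41 for S+ against PreS (adjusted p = 0.0261). There 0.101% and 0.358% of all kept probesets passed. Both values contain the difference between strains in PreS cells on this probeset, -1.67 ± 0.24. Its NOD PreS signals, 31.8 to 67.3, lie near the filter. On 1416122_at the differences in the rise were 1.70 ± 0.47 (adjusted p = 0.184) and 1.02 ± 0.47 (adjusted p = 0.541). No other Ccnd2 probeset passed either, so the difference in the rise is called on 1 of 6 probesets. For S- it was lost on that probeset in 5 of 35 settings (limma adjusted p 0.00385 to 0.128), among them without B10 S- array 1 (2.21, 0.0855), NOD S- array 2 (2.26, 0.0663) or NOD S- array 3 (2.43, 0.0663). For S+ it was lost in 10 of 35 (0.0115 to 0.487), among them without B10 S+ array 2 (1.98, 0.105) or 3 (2.06, 0.0615), NOD S+ array 1 (2.02, 0.0817) or 2 (1.82, 0.0978), or array 3 of B10 (1.90, 0.0512) or 2 of NOD (1.93, 0.0546) PreS cells from TCR insHEL mice.

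Cyclin D3 (chr17:47505051-47599689) moved the other way. Its only probeset had in B10 420.7, 289.1 and 235.1 in S- cells, 321.3, 473.1 and 606.3 in S+ cells, and 1141.5 to 1638.3 (median 1446.25) in PreS cells, with no overlap. Ccnd3 thus fell in B10, with a log2 fold change of -2.19 ± 0.24 in S- cells (SE; limma adjusted p = 6.9e-05) and -1.61 ± 0.24 in S+ cells (adjusted p = 3.6e-04), and passed in all 25 settings of both comparisons. In NOD it had 682.4, 435.1 and 559.3 in S- cells, 214.5, 231.1 and 1026.6 in S+ cells, and 285.6 to 1797.9 (median 1440.3) in PreS cells.

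Neither change of Ccnd3 passed the test in NOD, at -1.13 ± 0.57 in S- (limma adjusted p = 0.224) and -1.68 ± 0.57 in S+ cells (adjusted p = 0.0628), and the arrays of high Gapdh ratio stand out in these values. The 2 low S+ signals are on the arrays of ratio 57.2 and 40.9, and the high one, 1026.6, is on the array of ratio 3.63. The lone low PreS signal, 285.6, is on the array of ratio 28.9, and the other 5 PreS arrays had 1239.8 to 1797.9. Without that PreS array the log2 fold change was -1.49 in S- (adjusted p = 0.0461) and -2.05 in S+ cells (adjusted p = 0.00962), without S+ array 3 it was -2.41 in S+ cells (adjusted p = 0.00691), while without the 3 arrays of highest ratio, which leaves 1 NOD S+ array, here and below assumed to vary like the other groups, the value in S+ was -0.22 (adjusted p = 0.902). Over 25 settings the adjusted p ran from 0.0197 to 1.00 in S- and from 0.00691 to 0.902 in S+ cells. The strains were not shown to differ in the change of Ccnd3, by 1.06 ± 0.65 for S- (adjusted p = 0.490) and -0.08 ± 0.65 for S+ (adjusted p = 0.990). The part of RNA quality in the NOD values was not tested beyond these fits.

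**Figure D3:**
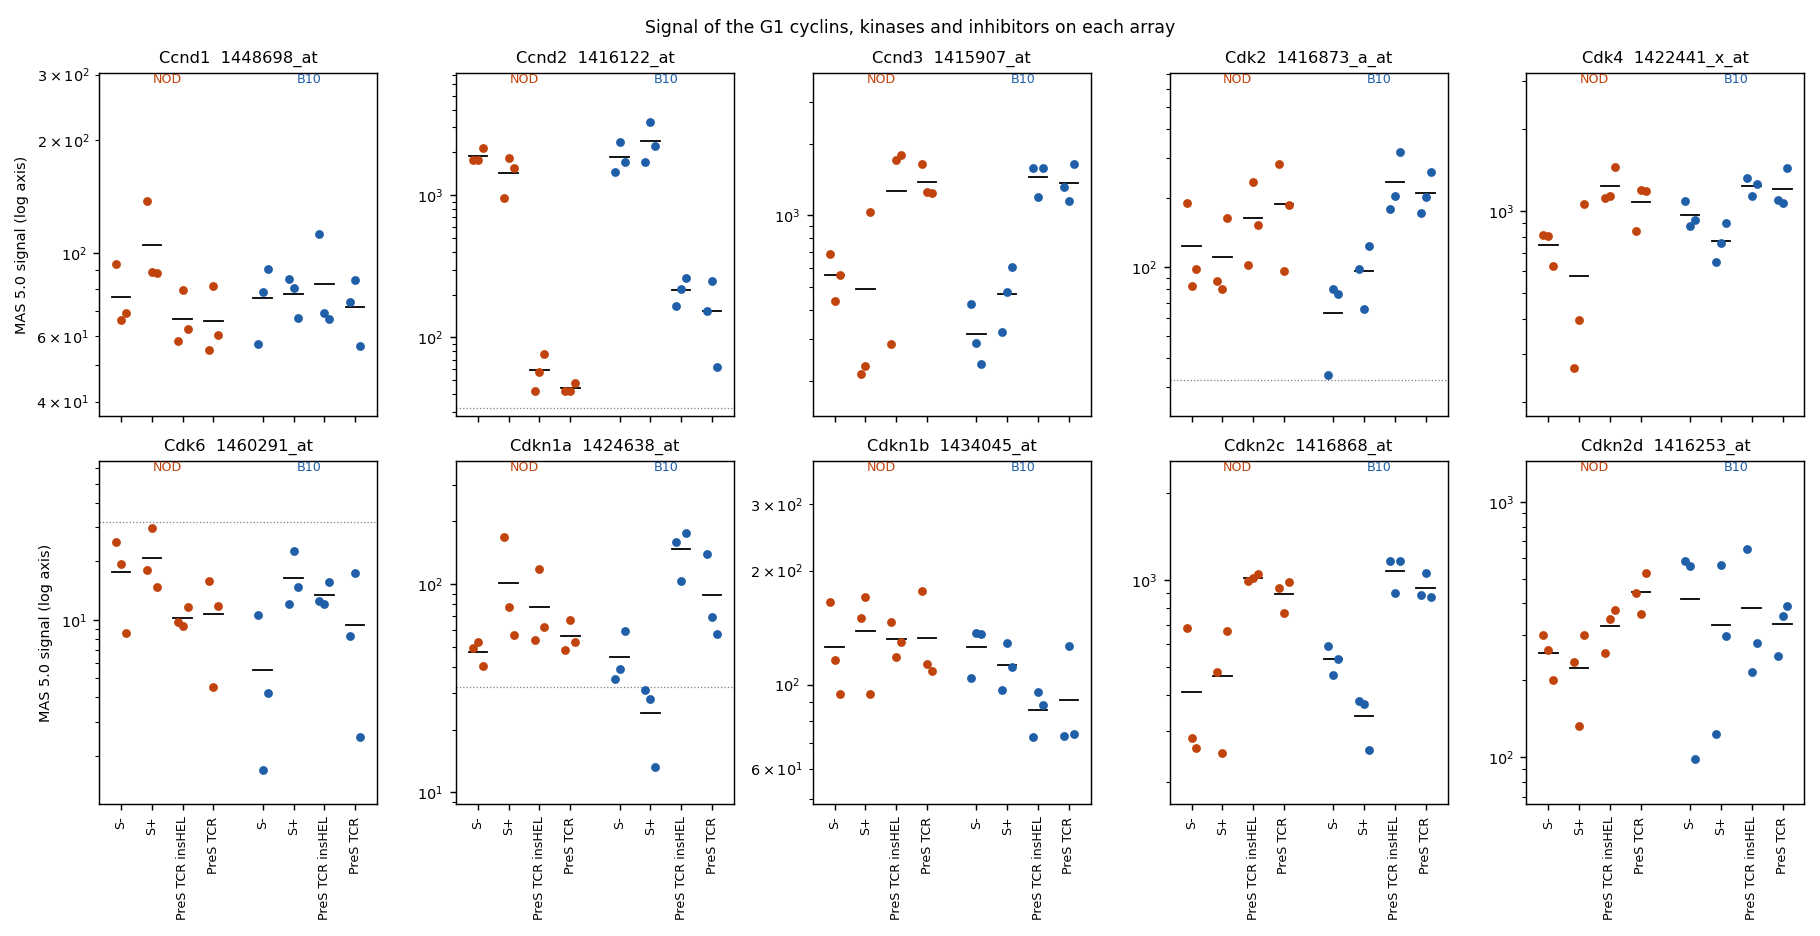
MAS 5.0 signal (log axis) of the brightest probeset of each of the 10 genes on the 24 arrays, NOD in orange and B10 in blue, with S-, S+ and the 2 kinds of PreS cells from left to right in each strain. Points are arrays, lines are arithmetic means of 3 arrays and the dotted line, where in range, is the filter at 32. Ccnd2 is higher in S- and S+ than in PreS arrays, Ccnd3 and Cdkn2c are lower in most, and Cdk6 stays under 32.

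Cyclin D1 (chr7:144929931-144939831), which is known to be little used by lymphocytes, passed the test in no comparison with PreS cells. Its brightest probeset (1448698_at) had 55.0 to 137.6 over all 24 arrays, with log2 fold changes against PreS of 0.02 in NOD S-, 0.47 in NOD S+, -0.15 in B10 S- and -0.05 in B10 S+ cells (limma adjusted p of 0.175 to 0.961). The NOD S+ arrays, 88.1 to 137.6, lay above the NOD PreS arrays, 55.0 to 81.5. The highest Ccnd1 signal, 137.6, was on NOD S+ array 1, which also had the highest sum of macrophage and dendritic cell markers, 2400. The dimmer 1417420_at had in NOD 84.8, 50 and 63.7 in S- cells, 39.8, 66.7 and 69.6 in S+ cells and 33.1 to 92.2 (median 45.9) in PreS cells. In B10 it had 11.7, 20.8 and 24.9 in S- cells, 4.0, 19.2 and 1.6 in S+ cells and 1.9 to 62.2 (median 10.25) in PreS cells. These signals are a description, since it passed the filter through NOD arrays alone and most B10 signals are near background. On 1448698_at the log2 fold change of NOD over B10 was -0.16 ± 0.17 in PreS cells and 0.36 ± 0.24 in S+ cells (limma adjusted p = 0.619 and 0.441).

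Cdk4 (chr10:127063535-127067288), a kinase partner of the D-type cyclins, was lower in S+ cells than in PreS cells of both strains, with calls that hung on single arrays and on the processing. Cdk4 on its brightest probeset (1422441_x_at) had in B10 1082.5, 882.6 and 923.2 in S- cells, 648.4, 764.5 and 906.0 in S+ cells, and 1070.2 to 1433.6 (median 1191.25) in PreS cells. S+ arrays lay below all PreS arrays and S- arrays overlapped them. Against PreS cells Cdk4 was at -0.30 ± 0.17 on the log2 scale in B10 S- (limma adjusted p = 0.297) and -0.64 ± 0.17 in B10 S+ cells (adjusted p = 0.0195). The call in B10 S+ was lost in 7 of 25 settings (adjusted p 0.00544 to 0.346), among them without S+ array 1 (0.0895), the array of ratio 29.4, and without S+ array 2 (0.0652).

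In NOD Cdk4 had 812.7, 806.6 and 629.8 in S- cells, 266.3, 398.2 and 1063.5 in S+ cells, and 843.0 to 1451.2 (median 1157.35) in PreS cells. As with Ccnd3, the S+ array of low Gapdh ratio (1063.5) was within the PreS range and the arrays of high ratio were below it, while all 3 S- arrays lay just below the PreS arrays. The log2 fold change was -0.69 ± 0.35 in NOD S- (limma adjusted p = 0.233) and -1.28 ± 0.35 in NOD S+ cells (adjusted p = 0.0288), and the value for S+ was -0.17 without the 3 arrays of highest ratio (adjusted p = 0.831, range over 25 settings 8.6e-04 to 0.831), -0.85 without S+ array 1 (0.169) and -1.16 without S+ array 2 (0.132). It was also lost without array 3 of PreS cells from TCR mice (0.0527) or from TCR insHEL mice (0.0545). With all arrays kept the call in NOD S+ was lost with quantile normalization (limma adjusted p = 0.0688), no filter (0.0746) and the methods' t-test (0.0568), among others. It passed in 15 of 25 settings. The other 2 Cdk4 probesets gave -1.27 (adjusted p = 0.0265) and -1.75 (0.101) in NOD S+, and -0.67 (0.0541) and -1.34 (0.0254) in B10 S+ cells. The 3 probesets correlated at r of 0.843 to 0.926 over the arrays.

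**Figure D4:**
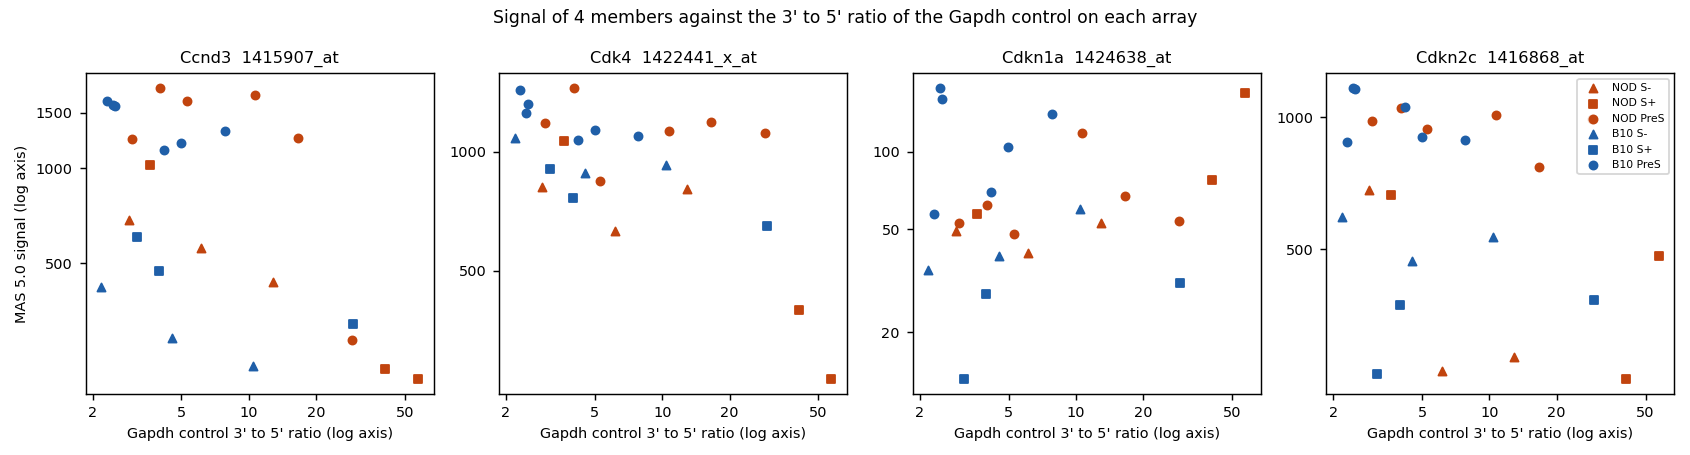
MAS 5.0 signal (log axis) of Ccnd3, Cdk4, Cdkn1a and Cdkn2c on each of the 24 arrays against the 3' to 5' ratio of the Gapdh control on the same array (log axis). Triangles are S-, squares S+ and circles PreS arrays, NOD in orange and B10 in blue. The 2 NOD S+ arrays of ratio 57.2 and 40.9 hold the lowest Cdk4 and Ccnd3 signals, and the NOD S+ array of ratio 3.63 lies near the PreS arrays in both.

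Cdk6 (chr5:3341004-3531008), the other partner of the D-type cyclins, had signals of 1.7 to 29.6 on its only probeset. All 24 arrays were under the filter, so that no change of Cdk6 could be tested, and this probeset gives no measure of whether Cdk6 is expressed.

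Cdk2 (chr10:128697938-128705051), the partner of cyclins E and A, was lower in selected cells of B10. It had 33.6, 80.3 and 75.9 in B10 S- cells, 98.1, 65.9 and 123.8 in B10 S+ cells, and 172.0 to 319.9 (median 203.8) in B10 PreS cells, with no overlap. Against PreS cells Cdk2 was at -1.99 ± 0.31 on the log2 scale in S- (limma adjusted p = 8.0e-04) and -1.29 ± 0.31 in S+ cells (adjusted p = 0.0101). The call in S- held in all 25 settings, and that in S+ in 23, being lost without S+ array 2 (-1.03, adjusted p = 0.0697) and with PreS arrays of the same kind of mice (-1.23, 0.0505, range 0.00438 to 0.0697). In NOD Cdk2 had 191.5, 82.5 and 98 in S- cells, 86.7, 80.2 and 163.8 in S+ cells, and 96.1 to 283.1 (median 170.15) in PreS cells, and the groups overlapped. The changes in NOD, -0.63 ± 0.38 (adjusted p = 0.316) and -0.81 ± 0.38 (adjusted p = 0.170), did not pass, and neither did the difference between strains in them, 1.36 ± 0.51 for S- (adjusted p = 0.301) and 0.48 ± 0.51 for S+ cells (adjusted p = 0.885).

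Cdkn1a (chr17:29090979-29100722), the inhibitor best known as a target of p53 and as a brake on cyclin E and A kinases, changed in S+ cells to a different extent in the strains. Its brightest probeset had 169.0, 78.0 and 57.2 in NOD S+ cells and 48.2 to 117.9 (median 58.0) in NOD PreS cells, and 30.9, 28.2 and 13.2 in B10 S+ cells and 57.4 to 176.6 (median 122.1) in B10 PreS cells. The B10 S+ arrays lay below every PreS and every NOD array, and the NOD S+ arrays overlapped the NOD PreS arrays. The log2 fold change of S+ against PreS was 0.33 ± 0.35 in NOD (limma adjusted p = 0.553) and -2.35 ± 0.36 in B10 (adjusted p = 4.1e-04), a difference of 2.69 ± 0.52 (adjusted p = 0.0203), 1 of 2 such calls among the 17 with 1434745_at of Ccnd2. Within S+ cells Cdkn1a was higher in NOD by 1.97 ± 0.42 (adjusted p = 0.00845), where 3.70% of all kept probesets differed (the other member probeset past the threshold, 1417420_at of Ccnd1, is not read as a result), and within PreS cells the value was -0.72 ± 0.30 (adjusted p = 0.209).

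The fall of Cdkn1a in B10 S+ cells passed in all 25 settings (limma adjusted p 6.2e-05 to 0.00431), and on the days that held both groups it was -3.01 and -2.61. All 3 B10 S+ signals were under 32, so that its size is not exact. NOD S+ and B10 S+ arrays shared no hybridization day, so the differences between strains in S+ cells could not be matched by day. The difference between strains was lost in 5 of 35 settings, 2.33 without B10 S+ array 3 (adjusted p = 0.0770), 2.23 without NOD S+ array 1 (0.0934), 2.22 without the 3 arrays of highest Gapdh ratio (0.248), 2.45 with day as a block (0.198) and 2.69 with no filter (0.0542), with a range of 0.00697 to 0.248. The higher level in NOD S+ cells was lost in 4 of 35 settings, 1.62 without B10 S+ array 3 (0.0739), 1.51 without NOD S+ array 1 (0.0887), 1.86 with day as a block (0.0723) and 1.51 without the 3 arrays of highest ratio (0.445). The macrophage and dendritic cell markers were higher in NOD S+ than in B10 S+ cells too, 2 of 5 past the threshold (Itgax by 1.43 and Cd74 by 2.05), and NOD S+ array 1 held both the highest Cdkn1a signal of the S- and S+ arrays, 169.0, and the highest marker sum of all arrays, 2400. The Gapdh ratios of NOD S+ arrays 1 and 2, with Cdkn1a signals of 169.0 and 78.0, were the highest of all 24 arrays. Array 3, with a marker sum of 1780 and a Gapdh ratio of 3.63, had a Cdkn1a signal of 57.2. The part of such cells or of RNA quality in the Cdkn1a values was not tested beyond these fits.

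In S- cells Cdkn1a had 49.1, 52.9 and 40.4 in NOD and 35.0, 39.3 and 59.8 in B10, and the strains overlapped (0.11 ± 0.42, limma adjusted p = 0.947). Against PreS cells this was -0.63 ± 0.35 in NOD (adjusted p = 0.268) and -1.45 ± 0.36 in B10 (adjusted p = 0.0177), which was lost in 5 of 25 settings (0.00849 to 0.0830), among them without S- array 1 (0.0830) and without S- array 2 (0.0801). The difference between strains in this change, 0.82 ± 0.52, did not pass (adjusted p = 0.509). Between S- and S+ cells Cdkn1a was -0.96 ± 0.40 in NOD (adjusted p = 0.803) and 0.90 ± 0.41 in B10 (adjusted p = 0.423), the arrays of the 2 groups not overlapping in either strain, and neither this nor the difference between strains of -1.86 ± 0.60 (adjusted p = 0.345) passed the test.

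**Figure D5:**
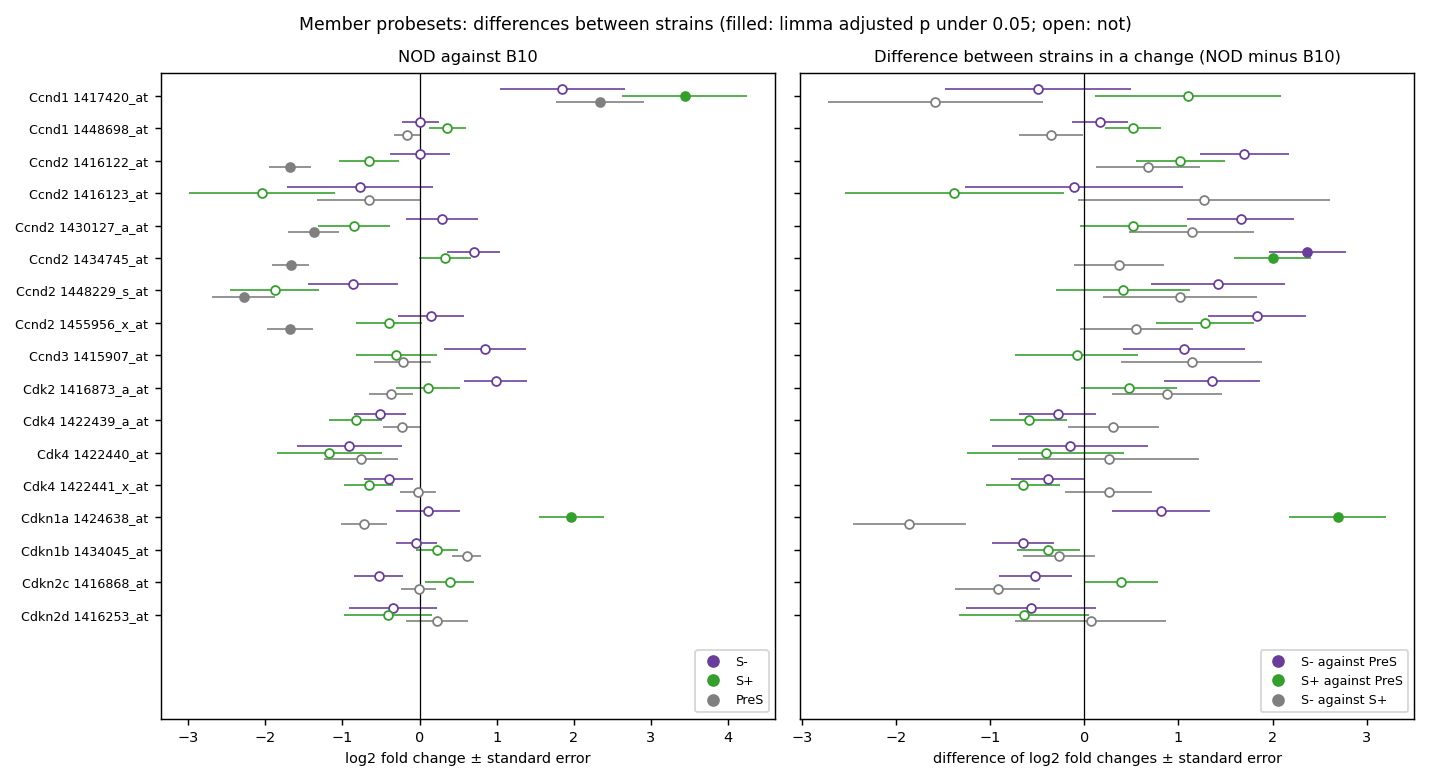
Log2 fold change of NOD over B10 within S-, S+ and PreS cells in purple, green and grey (left), and the difference between strains in a change, NOD minus B10, for S- against PreS, S+ against PreS and S- against S+ in the same colours (right), for the 17 kept member probesets. Bars are standard errors from limma and filled points passed an adjusted p of 0.05 over all 12838 probesets. In PreS cells 5 Ccnd2 probesets are filled left of 0, and Cdkn1a is filled right of 0 for S+ cells and for the change of S+ against PreS, at 2.69. The filled points of 1417420_at of Ccnd1 are not read, as it was kept through NOD arrays alone.

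The INK4 inhibitor Cdkn2c (chr4:109660876-109666756) was lower in selected cells of both strains. Cdkn2c had in NOD 680.4, 284.2 and 263.6 in S- cells, 482.9, 252.6 and 664.2 in S+ cells and 768.5 to 1051.5 (median 986.15) in PreS cells, and in B10 592.0, 470.0 and 532.8 in S- cells, 381.9, 372.9 and 258.9 in S+ cells and 876.5 to 1167.2 (median 980.15) in PreS cells. No S- or S+ array reached the lowest PreS array of its strain. Against PreS cells this gave -1.43 ± 0.34 on the log2 scale in NOD S- (limma adjusted p = 0.0171), -1.18 ± 0.34 in NOD S+ (0.0359), -0.91 ± 0.19 in B10 S- (0.00545) and -1.58 ± 0.19 in B10 S+ cells (4.6e-05). It was the only member besides Ccnd2 that passed in all 4 comparisons with PreS cells.

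How firmly Cdkn2c was called differed. In B10 S+ it passed in all 25 settings and in B10 S- in 24, all but the fit with day as a block (-1.02, 0.173, range 0.00361 to 0.173). In NOD S- it passed in 21 (limma adjusted p 8.3e-04 to 0.916), and was lost without S- array 2 (-1.25, 0.0966) and without S- array 3 (-1.17, 0.120). In NOD S+ it passed in 12 of 25 (0.00409 to 0.556), and the value was -0.79 without S+ array 2 (0.205), -1.29 without S+ array 1 (0.0865) and -0.61 without the 3 arrays of highest Gapdh ratio (0.547), and the adjusted p was 0.0510 to 0.0630 without any 1 of 4 PreS arrays. Between S- and S+ cells it was -0.25 ± 0.40 in NOD (adjusted p = 0.896) and 0.67 ± 0.22 in B10 (adjusted p = 0.186).

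Cdkn2d (chr9:21288459-21291421), of the same family, passed in NOD S+ cells alone, and in few settings. Its signals were 301.9, 262.1 and 199.5 in NOD S- cells, 234.7, 131.9 and 300.0 in NOD S+ cells and 256.4 to 528.0 (median 369.0) in NOD PreS cells, and those of B10 ran from 98.2 to 654.0 over all its arrays. Its value of -0.94 ± 0.28 on the log2 scale in NOD S+ against PreS cells (limma adjusted p = 0.0401) passed in 7 of 25 settings (0.0135 to 0.628), and it was lost without any 1 of 10 of the 12 NOD arrays, being -1.03 without S+ array 1 (0.0911) and -0.60 without S+ array 2 (0.227). The other comparisons with PreS cells gave -0.70, -0.13 and -0.30 for NOD S-, B10 S- and B10 S+ (adjusted p = 0.132, 0.925 and 0.786). The Cip/Kip inhibitor Cdkn1b (chr6:134920401-134925525), known as a holder of resting T cells in G1, had 72.6 to 176.7 on all 24 arrays, with log2 fold changes against PreS cells of -0.24, -0.10, 0.41 and 0.28 for NOD S-, NOD S+, B10 S- and B10 S+ (adjusted p of 0.243 to 0.838). In PreS cells it was 0.61 ± 0.19 higher in NOD than in B10, which did not pass (adjusted p = 0.0726).

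Set against each other, negative and positive selection gave no call among these genes in either strain. In S- against S+ cells 0 of the 17 probesets passed in NOD, where 0% of all kept probesets did. At an unadjusted limma p under 0.05 were 1 of the 17 and 565 of the 12838. In B10 0 passed (1.67% of all), with 2 of the 17 and 1499 of the 12838 under 0.05 unadjusted. In the difference between strains in this comparison 0 passed (0.148% of all), with 1 of the 17 and 990 of the 12838 unadjusted. At the same adjusted threshold the methods' t-test and the other alternatives also called 0. The paper's own rule, an F-test followed by contrasts judged at p under 0.05, was not applied here. Within the strains, the probesets under 0.05 by unadjusted limma p were Cdkn1a in NOD (0.032), and Cdkn2c (0.00824) and Cdkn1a (0.0486) in B10. Signals of S- and S+ arrays did not overlap for 2 of the 17 in NOD (8.06% of all) and 4 in B10 (15.9% of all). With 3 arrays a group this does not show that the levels were alike, since the standard errors of the log2 fold changes of the 9 genes were 0.26 to 0.65 in NOD and 0.20 to 0.68 in B10. In S- cells 0 of the 17 differed between NOD and B10 past the threshold (2.32% of all). At an unadjusted limma p under 0.05 were 2 of the 17 and 1869 of the 12838. Signals of the strains did not overlap for 6 of the 17 in S- cells (27.7% of all) and 5 in S+ cells (14.6% of all), 1417420_at among both.

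The rest of the G1/S pathway was set beside the members with a list of 25 genes, of which 23 were on the array and 20 were tested. Against PreS cells 6 of the 20 were lower in NOD S-, 7 in NOD S+, 7 in B10 S- and 7 in B10 S+ cells, and none was higher. Of all kept probesets 5.68%, 8.66%, 6.80% and 9.44% were lower in these comparisons, and 5.51%, 6.13%, 4.42% and 7.37% higher. Median log2 fold changes of the list were -0.42, -0.27, -0.45 and -0.47, beside 0.02, 0.02, 0.01 and 0.04 over all kept probesets. Those named here had the largest changes among the genes that passed. Ccne2, a cyclin E, fell, with log2 fold changes of -2.37 in NOD S-, -2.39 in NOD S+, -1.91 in B10 S- and -3.60 in B10 S+ cells (limma adjusted p of 1.3e-05 to 0.00345). In the same order Ccna2, cyclin A2, had -2.33, -2.07, -1.92 and -3.39 (2.0e-06 to 4.8e-04), and Skp2, which leads Cdkn1b to degradation, -1.59, -1.95, -2.05 and -3.17 (2.0e-06 to 0.0389). Ccne1 had -1.31 in NOD S+, -1.96 in B10 S- and -2.31 in B10 S+, and E2f1 -1.58 in NOD S- cells. These downstream cyclins were thus lower in the cells in which cyclin D2 was higher.

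Between S- and S+ cells Ccna2 was higher in B10 S- by 1.47 ± 0.32 (limma adjusted p = 0.0355), and no gene of the list passed in NOD. NOD was lower than B10 in Myc in PreS cells (-1.01 ± 0.24, adjusted p = 0.0141), and higher in S+ cells in Ccna2 (1.54 ± 0.28, adjusted p = 0.00218) and Rb1 (1.04 ± 0.28, adjusted p = 0.0371). Of the 4 division markers tested (Mki67, Pcna, Mcm2 and Cdk1), 4 were lower than in PreS cells in NOD S-, 3 in NOD S+, 2 in B10 S- and 3 in B10 S+ cells. None was higher, and 5.68%, 8.66%, 6.80% and 9.44% of all kept probesets were lower. Mki67, a protein of cycling cells, was -1.64 ± 0.38 in NOD S- (adjusted p = 0.0146), -1.02 ± 0.38 in NOD S+ (0.0895), -0.81 ± 0.29 in B10 S- (0.0973) and -3.82 ± 0.29 in B10 S+ cells (1.2e-06), and its change in S+ differed between the strains by 2.80 ± 0.50 (adjusted p = 0.0111). S+ cells of B10, the group of lowest Cdkn1a, were therefore also those of lowest Mki67 relative to PreS cells. Cdk1, the mitotic kinase, fell in all 4, with -2.22 in NOD S-, -2.05 in NOD S+, -1.79 in B10 S- and -3.88 in B10 S+ cells (adjusted p of 8.4e-07 to 0.00461). In S- against S+ cells 2 of the 4 division markers were higher in B10, where 1.67% of all kept probesets changed, Mki67 by 3.01 ± 0.34 (limma adjusted p = 5.0e-04) and Cdk1 by 2.10 ± 0.32 (adjusted p = 0.00531), and 0 passed in NOD, where Mki67 was at -0.62 ± 0.44 (adjusted p = 0.803). The strains differed in this comparison in Mki67, by -3.63 ± 0.57 (adjusted p = 0.00426).

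The genes whose pattern over the 24 arrays was most like that of each member were found by Pearson's r on log2 values, among all kept probesets of other genes. These are descriptions, since the arrays share groups, strain and RNA quality. For Ccnd2 (1416122_at) they were Parp14 (r = 0.962), Irf4 (0.954) and Samhd1 (0.951), and for its 1434745_at Il7r (0.962), the interleukin 7 receptor chain, Izumo1r (0.959) and Gimap4 (0.957). For Cdkn2c they were Orc1 (0.934), Slbp (0.925) and Cd8a (0.923), and for Ccnd3 Edem1 (0.925), Ets2 (0.908) and Cdt1 (0.904), where Orc1 and Cdt1 license replication origins. Cdk4 was nearest to Snrpa1 (0.950), Psmc3 (0.942) and Cops4 (0.939), and Cdk2 to Palm (0.871), Uhrf1 (0.869) and Topbp1 (0.858). Cdkn1a was less close to any gene, with Mthfd1 (0.859), Scarb1 (0.853) and Rad54l (0.826), and so were Cdkn2d with Tspo (0.840), Cdkn1b with Psd3 (0.741) and Ccnd1 with Ifi30 (0.734), Itgax (0.699) and Naaa (0.694). Itgax is 1 of the dendritic cell markers above. Among the members themselves Ccnd2 and Cdkn2c had r = -0.82 and Ccnd3 and Cdk2 r = 0.80.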

How the data were processed

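mRNA was measured on 24 MOE430A arrays, 3 pools for each of 8 kinds of sorted thymocytes, from 100000 to 1000000 cells a pool. The stain held actinomycin D and α-amanitin, which stop transcription. Amplification of the RNA took 2 rounds. Replicates were independent pools, and the number of arrays limits the precision. The authors computed MAS 5.0 signals and deposited them for 22690 probesets as intensity values on a linear scale, each array having been brought to a trimmed mean of 150. Deposited records of each array run gave its hybridization day, 1 of 9. Present calls were not used here.

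After 64 control probesets were left out, 33 values of 0 were set to 0.1, and log2 signals of each array were standardized to 1 mean and variance and put back on a log2 scale. A filter at 32, to be reached by each of the 3 arrays of any 1 kind of cells, stood in for present calls (12838 of 22626 probesets, 7831 genes). Symbols came from the annotation of the platform, updated through the gene identifier: 20380 probesets had 1 symbol, 691 several and 1555 none. Each strain was fitted alone in limma 3.58.1 (R 4.3.3) with the PreS groups merged, and both strains in 1 fit for differences between them. P values were adjusted by Benjamini-Hochberg over all kept probesets.

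The members, the gene lists and the tests were chosen with earlier results of these data known. All 10 members were named, each by the probeset of highest mean signal, with its other kept probesets beside it, the 3 genes of highest r, and up to 4 genes of the pathway list in each comparison. Values of the dimmer probesets that were not kept are not given. Replicates correlated at 0.843 to 0.967. On the log2 scale the fits left a typical (median) SD of 0.444 for NOD and 0.363 for B10. The script was tested on simulated data. The labels do not say whether replicate numbers mark pairs, and no pairs were assumed. Arrays that carry the same number deviated from their groups with a mean correlation of 0.0356 (-0.324 to 0.632). For arrays of different numbers the mean was -0.0185. Alternatives were MAS 5.0 scaling only, quantile normalization, no filter or a filter at 64, a floor of 16, and the methods' t-test. That t-test was read at the adjusted threshold used throughout, not by the paper's own cut-offs. The other alternatives were replicate number or day as a block, PreS arrays of the same kind of mice, all 24 arrays in 1 fit, and single arrays left out. A further 3 were chosen after seeing the data, namely a random block for day, a covariate for the Gapdh 3' to 5' ratio, and a fit that leaves out the 3 arrays in which it was highest.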

Additional observations from a re-analysis of the deposited data

Results flagged for a closer look

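In 34 groups of 6 PreS arrays, 1 for each member probeset and strain, a single array stood apart from the other 5 in 4, judged by its gap to the nearest array as a share of the whole range, on log2 values after the arrays were standardized. About 1 in 20 such groups would do so by chance. Ccnd3 was at 285.6 on array 1 of NOD PreS cells from TCR insHEL mice and at 1239.8 to 1797.9 on the others, and the Gapdh 3' to 5' ratio of that array was 28.9. Cdk4 (1422441_x_at) was at 843 on array 1 of NOD PreS cells from TCR mice and at 1116.6 to 1451.2 on the others, and Ccnd2 (1455956_x_at) at 10.7 on the same array and at 21.6 to 27.3 on the others. Cdkn1a was at 117.9 on array 2 of NOD PreS cells from TCR insHEL mice and at 48.2 to 67.4 on the others.

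The strains differed in 3 changes by the test of the difference itself (limma, NOD minus B10): Cdkn1a in S+ against PreS by 2.69, and Ccnd2 on 1434745_at by 2.37 in S- against PreS and by 2.00 in S+ against PreS cells. The other 5 kept Ccnd2 probesets did not pass in either comparison. Both Ccnd2 values contain the difference between strains in PreS cells on 1434745_at, -1.67.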

How the results depend on the processing

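Of 50 member results that passed, none changed sign under any of 24 to 35 alternatives each, and 29 lost the call in at least 1. Among the 50 are those of 1416123_at of Ccnd2 and 1417420_at of Ccnd1. These 2 had to differ through the filter, so that the sign they kept is no support. Counts of member probesets that passed are given below mostly without the share over all probesets in the same setting. They therefore cannot tell a change in the members from one in the calls of the whole array. The counts include 1416123_at of Ccnd2 and 1417420_at of Ccnd1, which the filter kept through the groups where they are high, and moved as follows. With hybridization day as a block they were 6 in B10 S- against PreS, 2 in NOD S+ against PreS, 0 in NOD S- against PreS, 1 in NOD S+ against B10 S+, 1 in NOD S- against B10 S-, and 0 in both differences between strains (S+ and S- against PreS), and that fit called 5 and 0 of all probesets in NOD S+ and NOD S- against PreS. In NOD S+ against PreS the count of 10 was 6 with the methods' t-test, 5 with PreS arrays of the same kind of mice, 4 without the 3 arrays of highest Gapdh ratio and 5 to 12 with single arrays left out. In NOD S+ against B10 S+ the count of 2 was 1 with the filter at 64, 4 with the floor of 16, 0 without the 3 arrays of highest ratio and 0 to 5 with single arrays left out, and in NOD S- against B10 S- the floor of 16 gave 1. For the strains' difference in S+ against PreS the count of 2 was 1 with quantile normalization, 0 with no filter, 0 without the 3 arrays of highest ratio and 0 to 3 with single arrays left out, and for that in S- against PreS the count of 1 was 0 with no filter and 0 to 2 with single arrays left out. The cause was not tested, other than that leaving out arrays leaves fewer samples, that NOD S- and NOD PreS arrays share no day, and that NOD S+ and B10 S+ arrays share none either. With the replicate number as a block, which the labels do not tie to a shared origin, no member result that passed lost its call. The counts in that fit were 10 in B10 S-, 13 in B10 S+, 7 in NOD S- and 11 in NOD S+ against PreS. For NOD against B10 they were 6, 3 and 0 in PreS, S+ and S- cells. For the strains' differences in S+ and S- against PreS they were 2 and 1, and in S- against S+ the count was 0. Signals near 32 or lower, in Ccnd1, Cdkn1a of B10 S+ cells and Ccnd2 of PreS cells, limit the sizes of folds.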
